A study of Mus musculus with 6 samples.

Results

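Interferon-stimulated genes are the genes that cells switch on after interferon binds its receptors. A set of 42 was listed by symbol, with earlier results of these data known, and all 42 stood in the tables of 23237 gene symbols. Of these, 9 belong to families that lean towards type I interferon (Ifit, Oas and Mx) and 9 to families that lean towards interferon gamma (the guanylate-binding proteins, Gbp, and the immunity-related GTPases, Irg, here Iigp1, Igtp, Irgm1 and Ifi47). The other 24 are sensors, transcription factors and effectors outside these families. They were measured in primary pancreatic acinar cells of mice, which secrete digestive enzymes, by sequencing 1 tag near the 3' end of each poly(A) transcript. Of the 6 libraries, 3 are labelled as a conditional knock-out (cKO) for estrogen-related receptor gamma, with the genotype written ERRgamma -/-, and 3 are controls labelled wild type, all of strain C57BL/6J. All cells were kept in Waymouth's medium with serum, antibiotics, a trypsin inhibitor and recombinant human epidermal growth factor. The driver and extent of the deletion, the time in culture, the age and sex of the animals and the purity of the cells are not stated in the labels. The labels do not tie the libraries of a group to separate animals, so each p-value reflects library-to-library spread, part of which may be technical.

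Type I interferons and interferon gamma act through separate receptors on the cell surface. The type I receptor activates the kinases Jak1 and Tyk2 and a complex that holds Stat2 and Irf9 and binds the interferon-stimulated response element (ISRE). The gamma receptor activates Jak1 and Jak2 and acts through the gamma-activated site (GAS). Gamma also induces the factor Irf1, which binds ISRE-like sites, so most interferon-stimulated genes respond to both interferons to some degree. In tissues, macrophages are among the strongest responders, and epithelial cells respond as well.

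Library totals were 15.2 to 17.0 M counts (M, 1e6 counts) in cKO and 23.0 to 25.2 M in control. TMM scaling, which sets the bulk of genes equal, gave effective library sizes of 33.2 to 59.96 M in cKO and 7.52 to 8.49 M in control. Levels below are counts per 1e6 of that effective size (CPM), and fold changes are log2 values relative to the bulk of genes on that scale. The limit set by a count of 0, taken as 3 counts, was 0.05004 to 0.0905 CPM for cKO and 0.353 to 0.399 CPM for control, for counting error only. Esrrg, which encodes the targeted receptor, had 0, 9 and 1 counts in cKO replicates 1, 2 and 3 and 0 in each control library, and a 3' tag may lie outside the deleted part, so the genotype labels were not checked by it. All 11 acinar markers tested were detected in every library, with a summed level of 16261 to 104333 CPM in cKO and 699807 to 810621 CPM in control. On the TMM scale all 11 fell, against 20.7% of all tested genes. The size of this fall depends on the scaling. On library totals the median log2 fold change of all tested genes was 3.37, in place of 0.10 on the TMM scale.

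Most of the interferon-stimulated genes were higher in cKO. In edgeR's quasi-likelihood test, 36 of 42 members rose, 1 fell (Ifi27) and 5 did not pass (Isg20, Trim25, Cmpk2, Stat2 and Xaf1), at an adjusted p of 0.05 over all 13132 tested genes. Over all tested genes 24.0% rose and 20.7% fell, 44.7% in either direction. The median log2 fold change was 2.32 over the 42 members and 0.10 over all tested genes. A rise of at least 2 on the log2 scale was seen in 28 members and in 10.2% of all tested genes. Every cKO library lay above every control library for 38 members, against 30.7% of tested genes, and below for Ifi27, against 25.4%. As a summed level the members took 796, 494 and 715 CPM in cKO replicates 1, 2 and 3, against 275, 245 and 207 CPM in control replicates 1, 2 and 3. Of the members, 24 had at least 10 counts in every control library and 18 had fewer in at least 1, so for these 18 the size of the rise is uncertain. These 18, and Oasl2 with 12 counts in control replicate 1, passed the filter for testing only with cKO libraries. They are high there, so their calls lend the rise no support. In bulk samples, fewer cells of a type and less RNA per cell cannot be told apart.

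**Figure D1:**
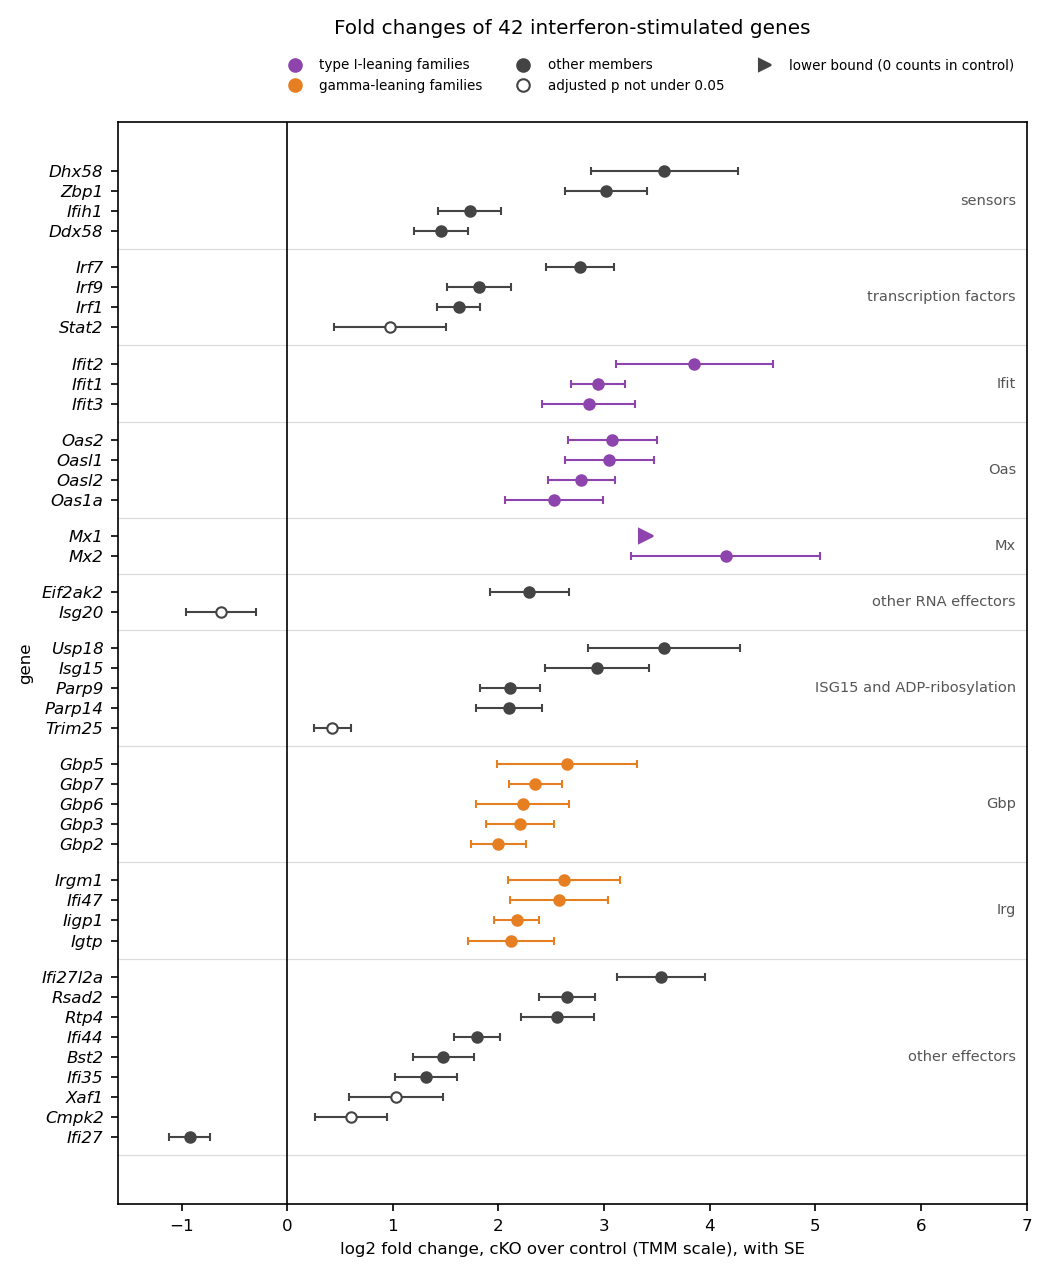
Log2 fold change of each of the 42 genes, cKO over control on the TMM scale, with bars of 1 SE, grouped by role. Filled points passed an adjusted p of 0.05, open points did not, and the arrow for Mx1 is a lower bound because all 3 control libraries had 0 counts. Only Ifi27 and Isg20 lie below 0, and on library totals both lie above 0, at 2.27 and 2.51.

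Promoter windows of 300 bases, 250 before the annotated start of a gene and 50 after it, were taken from RefSeq (GRCm38.p6) for 29 of the 42 members. Mx1, Mx2, Oas2, Gbp6, Iigp1, Zbp1, Dhx58, Usp18, Parp9, Parp14, Rtp4, Ifi27 and Ifi27l2a have no entry in the table used. The ISRE was searched as GAAA, any 2 bases and GAAA again, and the GAS as TTCNNNGAA, on both strands. An ISRE match lay in the window of 16 of 29 members (55.2%), against 3.99% of 27025 genes with a window. The counts were 3 of 6 type I-leaning genes, 6 of 7 gamma-leaning genes and 7 of 16 other members. A GAS match was found for 10 of 29 members (34.5%), against 9.55% of all genes with a window, among them 2 of 6 type I-leaning and 3 of 7 gamma-leaning genes. ISRE and GAS letters overlapped only in the window of Bst2. The stretches below run from 160 bases before the start to 50 after it, on the strand of the gene. They show that both kinds of family carry the ISRE and that the GAS is found beside it in some. Capitals mark the ISRE and GAS matches. The GAS is the 9-base capital run that begins TTC and ends GAA, and every other capital run is ISRE, alone or overlapping with further copies.
Ifit1 (type I-leaning, chr19:34640729-34640938, plus strand, GRCm38.p6): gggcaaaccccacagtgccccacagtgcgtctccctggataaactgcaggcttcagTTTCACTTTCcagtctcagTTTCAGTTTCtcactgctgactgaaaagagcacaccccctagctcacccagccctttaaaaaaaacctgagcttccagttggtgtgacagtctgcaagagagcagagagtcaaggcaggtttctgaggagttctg
Ifit3 (type I-leaning, chr19:34583369-34583578, plus strand, GRCm38.p6): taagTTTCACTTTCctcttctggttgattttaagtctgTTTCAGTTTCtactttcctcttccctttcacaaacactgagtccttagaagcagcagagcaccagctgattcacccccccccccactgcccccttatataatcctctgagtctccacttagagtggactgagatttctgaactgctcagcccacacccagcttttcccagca
Oas1a (type I-leaning, chr5:120907476-120907685, minus strand, GRCm38.p6): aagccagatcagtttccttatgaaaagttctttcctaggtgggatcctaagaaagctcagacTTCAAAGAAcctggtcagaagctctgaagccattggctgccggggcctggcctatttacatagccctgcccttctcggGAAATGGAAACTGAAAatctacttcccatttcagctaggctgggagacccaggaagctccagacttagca
Isg15 (ubiquitin-like modifier, chr4:156200769-156200978, minus strand, GRCm38.p6): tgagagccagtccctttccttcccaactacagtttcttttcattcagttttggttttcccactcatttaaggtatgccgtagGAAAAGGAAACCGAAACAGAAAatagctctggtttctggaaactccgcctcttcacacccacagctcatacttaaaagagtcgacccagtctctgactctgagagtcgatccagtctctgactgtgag
Gbp2 (gamma-leaning, chr3:142620503-142620712, plus strand, GRCm38.p6): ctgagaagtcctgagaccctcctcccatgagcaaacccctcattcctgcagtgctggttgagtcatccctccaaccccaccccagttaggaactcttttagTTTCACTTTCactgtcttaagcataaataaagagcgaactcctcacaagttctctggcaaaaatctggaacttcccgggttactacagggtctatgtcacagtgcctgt
Gbp7 (gamma-leaning, chr3:142530176-142530385, plus strand, GRCm38.p6): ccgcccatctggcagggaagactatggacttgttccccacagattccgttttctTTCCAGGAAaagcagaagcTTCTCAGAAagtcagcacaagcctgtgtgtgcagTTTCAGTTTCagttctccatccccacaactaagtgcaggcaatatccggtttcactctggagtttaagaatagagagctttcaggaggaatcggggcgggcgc
Igtp (gamma-leaning, chr11:58199396-58199605, plus strand, GRCm38.p6): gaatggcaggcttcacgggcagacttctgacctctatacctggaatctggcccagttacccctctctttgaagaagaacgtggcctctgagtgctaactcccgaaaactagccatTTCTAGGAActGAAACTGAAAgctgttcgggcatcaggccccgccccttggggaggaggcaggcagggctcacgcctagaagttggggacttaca
Irf1 (transcription factor, chr11:53769854-53770063, plus strand, GRCm38.p6): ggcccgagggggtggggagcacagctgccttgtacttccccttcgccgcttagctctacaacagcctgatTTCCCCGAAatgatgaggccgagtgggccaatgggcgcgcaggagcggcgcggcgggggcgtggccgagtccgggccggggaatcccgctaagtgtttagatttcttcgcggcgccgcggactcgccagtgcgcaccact

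In the window of Ifit1, Ifit3 and Isg15 the ISRE stood as 2, 2 and 3 copies, and the copies of Isg15, like those of Oas1a, share letters. Oas1a, a type I-leaning gene, carried a GAS match as well as its pair of ISRE matches. Among the gamma-leaning genes, Gbp5, Gbp7 and Igtp carried both motifs, and Gbp2, Gbp3 and Irgm1 the ISRE without a GAS. Irf1 had a GAS match without an ISRE. The changed members Irf7, Irf9, Ifi44, Oasl1, Oasl2 and Ifi47 had neither set of letters in these windows. A match of letters is a description of the window and shows no binding.

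**Figure D2:**
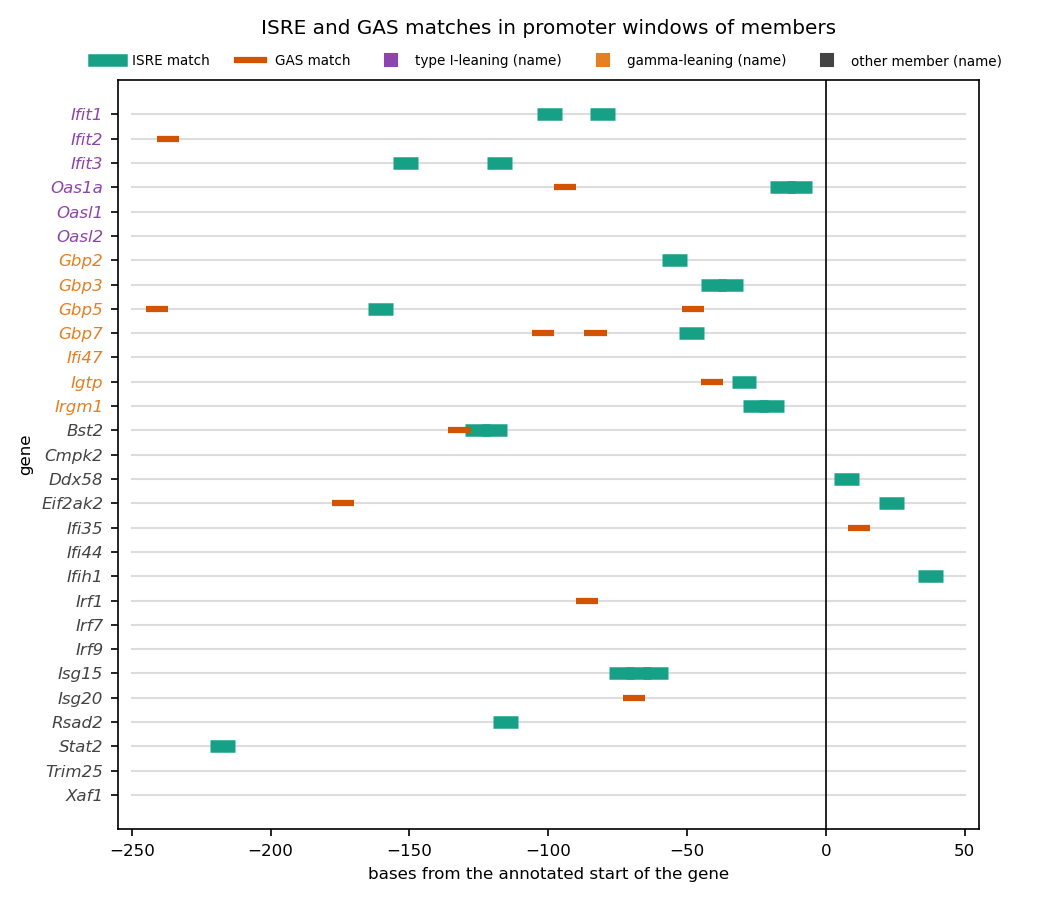
Matches to the ISRE (green) and the GAS (orange) in the promoter windows of the 29 members with an entry, by distance in bases from the annotated start of the gene (vertical line). Names are coloured by family: 3 of 6 type I-leaning and 6 of 7 gamma-leaning genes hold an ISRE match and 2 of 6 and 3 of 7 a GAS match.

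The 4 members that are sensors of foreign or misplaced nucleic acid all rose, against 24.0% of all tested genes. Ddx58, which encodes the RNA sensor RIG-I, had 14.0, 8.42 and 12.4 CPM in cKO replicates 1, 2 and 3, against 4.79, 4.12 and 3.81 CPM in control replicates 1, 2 and 3. The groups did not overlap, and cKO replicate 2 was the lowest of its group (1.45 ± 0.25, log2 fold change ± SE; adjusted p = 0.000302, edgeR). Zbp1, a sensor of Z-form nucleic acid linked to cell death, had 9.74, 5.73 and 10.8 CPM in cKO and 0.931, 1.65 and 0.635 CPM in control (3.02 ± 0.39; adjusted p = 2.14e-05). Ifih1, the RNA sensor MDA5, rose by 1.73 ± 0.30 (adjusted p = 0.000265). Dhx58, the RIG-I-like regulator LGP2, had 267, 50 and 268 counts in cKO against 0, 3 and 4 in control (3.57 ± 0.70; adjusted p = 0.000811). With 585 counts in all cKO libraries and 7 in all control libraries, its ratio per effective size was 13.1 (exact 95% interval 6.31 to 32.7, counting error only). Without control replicate 3 the fitted fold change of Dhx58 was 4.22.

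Irf1, Irf7 and Irf9, transcription factors of the interferon response, rose, and Stat2 did not pass. Irf1 had 42.3, 28.2 and 47.5 CPM in cKO replicates 1, 2 and 3, against 11.7, 13.8 and 12.8 CPM in control replicates 1, 2 and 3 (1.62 ± 0.20; adjusted p = 1.67e-05, edgeR). Irf7, the factor that amplifies type I interferon production, had 32.4, 13.4 and 28.6 CPM in cKO and 3.72, 4.12 and 3.05 CPM in control (2.77 ± 0.32; adjusted p = 1.80e-05). For both genes every cKO library lay above every control library, and cKO replicate 2 was the lowest cKO library. Irf9, the DNA-binding part of the type I complex, rose by 1.82 ± 0.30 (adjusted p = 0.000263). Exons of Irf9 overlap Rnf31 on the same strand and those of Irf7 overlap Phrf1 on the opposite strand, so reads there may be shared. Stat2, its partner, had 7.48, 2.68 and 6.92 CPM in cKO and 5.45, 2.36 and 1.02 CPM in control, so the groups overlapped. Its log2 fold change was 0.97 ± 0.53 (adjusted p = 0.162). Without cKO replicate 2 it was 1.32 (adjusted p = 0.0102) and without control replicate 1 it was 1.75 (adjusted p = 0.0275).

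The Ifit genes, whose proteins bind foreign RNA and block its translation, lie side by side on chromosome 19 (34550694 to 34650009, GRCm38). All 3 rose, against 24.0% of all tested genes. Ifit1, whose window holds the ISRE copies shown above, had 32.6, 21.4 and 28.4 CPM in cKO replicates 1, 2 and 3, against 2.79, 4.95 and 2.92 CPM in control replicates 1, 2 and 3. Its lowest cKO library stood well above its highest control library (2.94 ± 0.25; adjusted p = 9.72e-07, edgeR). Ifit3, an Ifit1 partner, had 36.2, 15.4 and 26.7 CPM in cKO and 5.58, 3.77 and 1.52 CPM in control (2.85 ± 0.44; adjusted p = 0.000658). Ifit2 had 288, 55 and 274 counts in cKO and 5, 0 and 1 counts in control (3.85 ± 0.75; adjusted p = 0.000834). Its ratio per effective size, from 617 and 6 counts, was 16.1 (exact 95% interval 7.36 to 44.1). Without control replicate 1 the fitted fold change of Ifit2 was 5.84, and without control replicate 2 it was 3.24. Of the words of 50 bases in the last 500 bases of the Ifit3 transcript, 14.9% are shared with Ifit3b, so the split of reads between these genes is uncertain.

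The 4 Oas genes on chromosome 5 rose too, against 24.0% of all tested genes. They encode enzymes that make a signal for RNA decay, or proteins related to them. Oas2 had 8.12, 4.52 and 7.64 CPM in cKO replicates 1, 2 and 3 and 1.064, 0.353 and 1.02 CPM in control replicates 1, 2 and 3 (3.08 ± 0.42; adjusted p = 3.75e-05, edgeR). Oasl1, a related gene whose protein restrains Irf7 translation in mice, had 8.39, 4.71 and 7.56 CPM in cKO and 0.532, 1.41 and 0.508 CPM in control (3.05 ± 0.42; adjusted p = 4.18e-05). Oasl2 had 26.4, 16.0 and 19.8 CPM in cKO and 1.60, 2.59 and 4.83 CPM in control (2.79 ± 0.32; adjusted p = 1.42e-05). Oas1a had 9.26, 4.31 and 7.54 CPM in cKO and 2.39, 0.589 and 0.762 CPM in control (2.52 ± 0.46; adjusted p = 0.000569). No Oas gene had overlapping groups, and cKO replicate 2 was the lowest cKO library for all 4. Of all tested genes, 30.7% had every cKO library above every control library. Oas1a shares 56.1% of its 3' words with Oas1g, so its own level is uncertain. Without control replicate 1 the fold change of Oas1a was 3.39, and without control replicate 2 that of Oasl1 was 3.73.

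The Mx genes, neighbours on chromosome 16 (97447035 to 97560900), encode dynamin-like GTPases that block viruses. Mx1 is known to be disrupted in most laboratory strains. It had 314, 85 and 244 counts in cKO replicates 1, 2 and 3 and 0 counts in each control library (adjusted p = 2.08e-05, edgeR). Mx1 was thus at least 10.5-fold higher in cKO, counting the floor of 3 counts in each control library. Mx2 had 101, 53 and 81 counts in cKO and 0, 2 and 0 in control (4.15 ± 0.90; adjusted p = 0.00156). With 235 against 2 counts its ratio per effective size was 18.4 (exact 95% interval 5.04 to 153). Without control replicate 2 no counts of Mx2 were left in control.

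The Gbp family, GTPases that attack the vacuoles of intracellular microbes, rose in 5 of 5 genes, against 24.0% of all tested genes. Gbp2, Gbp3, Gbp5 and Gbp7 lie in 1 cluster on chromosome 3 (142493978 to 142638008). Gbp7 had 23.4, 14.4 and 21.1 CPM in cKO replicates 1, 2 and 3, against 3.19, 3.53 and 4.83 CPM in control replicates 1, 2 and 3 (2.35 ± 0.25; adjusted p = 4.50e-06, edgeR). Gbp2 had 20.7, 13.1 and 20.8 CPM in cKO and 4.92, 5.54 and 3.18 CPM in control (1.999 ± 0.26; adjusted p = 2.32e-05). Gbp3 had 11.3, 6.42 and 11.1 CPM in cKO and 2.13, 2.59 and 1.52 CPM in control (2.20 ± 0.32; adjusted p = 5.92e-05). In each of these genes cKO replicate 2 was the lowest cKO library and still lay above all control libraries. Gbp5, which also promotes inflammasome assembly, had 4.03, 2.05 and 5.004 CPM in cKO and 1.33, 0.471 and 0 CPM in control (2.65 ± 0.66; adjusted p = 0.00538). Gbp6, on chromosome 5, had 4.33, 3.80 and 4.92 CPM in cKO and 1.60, 0.825 and 0.381 CPM in control (2.23 ± 0.44; adjusted p = 0.000769). Gbp6 shares 77.8% of its 3' words with other genes, Gbp10 first among them, so its own level is uncertain. Without control replicate 1 the fold changes of Gbp5 and Gbp6 were 3.91 and 2.83.

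The Irg family, GTPases that act on the same vacuoles and are largely lost in humans, rose in 4 of 4 genes. Of all tested genes 24.0% rose. Iigp1 had 22.5, 16.6 and 20.7 CPM in cKO replicates 1, 2 and 3, against 4.52, 4.71 and 4.06 CPM in control replicates 1, 2 and 3 (2.17 ± 0.21; adjusted p = 2.08e-06, edgeR). Ifi47 had 20.6, 12.005 and 22.2 CPM in cKO and 5.85, 2.36 and 1.14 CPM in control (2.57 ± 0.46; adjusted p = 0.00164). Igtp, whose window holds the GAS and the ISRE shown above, 2 bases apart,, had 8.37, 4.46 and 8.07 CPM in cKO and 2.79, 1.18 and 0.889 CPM in control (2.12 ± 0.41; adjusted p = 0.000665). Irgm1, a regulator of the other Irg proteins, had 3.89, 3.41 and 3.69 CPM in cKO and 1.33, 0.236 and 0.254 CPM in control (2.62 ± 0.53; adjusted p = 0.000978). Control replicate 1 was the highest control library for Ifi47, Igtp and Irgm1, and the groups still did not overlap. Without it their fold changes were 3.38, 2.75 and 3.89. Exons of Igtp overlap Irgm2 and exons of Ifi47 overlap Olfr56 on the same strand, so reads there may be shared.

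**Figure D3:**
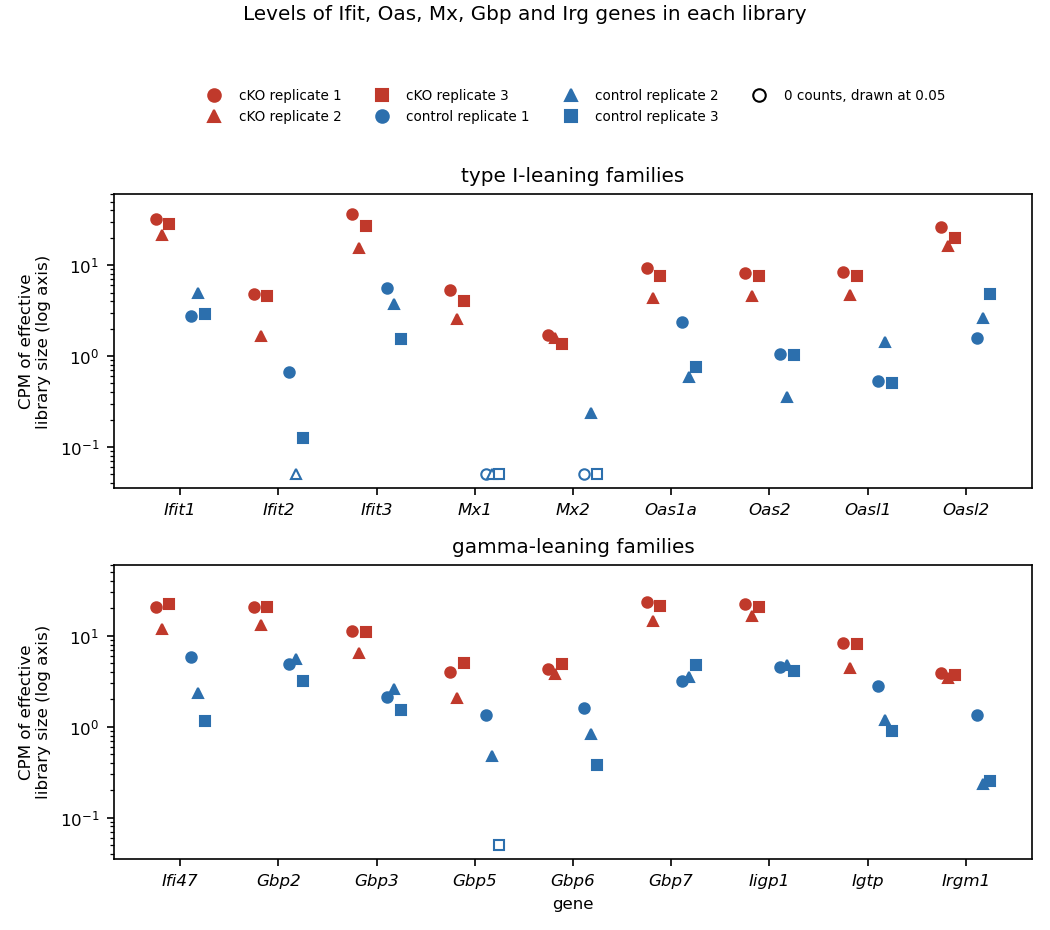
Levels of the 9 type I-leaning genes (top) and the 9 gamma-leaning genes (bottom) in each library, as CPM of the effective library size on a log axis, with cKO in red left of control in blue and 1 marker shape per replicate number. Open symbols are counts of 0, drawn at 0.05. All cKO points lie above all control points of the same gene.

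Set side by side, both kinds of family rose in every gene, 9 of 9 each, in a comparison where 24.0% of tested genes rose. Ifit2, Mx1, Mx2, Oas1a, Oas2, Oasl1, Ifi47, Gbp5, Gbp6, Igtp and Irgm1 had under 10 counts in some control library. These genes, and Oasl2 with 12 counts in control replicate 1, passed the filter for testing only with cKO libraries. They are high there, so their calls lend the rise no support. The median log2 fold change was 3.05 for the type I-leaning genes (2.52 to 4.15 outside Mx1) and 2.23 for the gamma-leaning genes (1.999 to 2.65). The type I median was the same with Mx1 at its bound. A ratio of counts within a library does not depend on the scaling. Gbp and Irg counts made up 47.3%, 51.4% and 52.2% of the counts of these 18 genes in cKO replicates 1, 2 and 3, against 65.4%, 60.7% and 58.2% in control replicates 1, 2 and 3. Their exact Clopper-Pearson 95% intervals were 46.5 to 48.1, 49.95 to 52.8 and 51.4 to 53.1 in cKO, and 59.9 to 70.6, 54.9 to 66.2 and 51.4 to 64.8 in control. Every cKO share lay below every control share, though the interval of control replicate 3 reaches into the cKO range. The 18 genes gave 4922 to 14959 counts per library in cKO and 220 to 318 in control. Without Ifi47, which is an Irg gene by sequence and not by symbol, the shares were 42.6%, 47.1% and 47.0% in cKO and 59.9%, 57.9% and 56.4% in control. These shares are descriptions over genes chosen as a set, and no test was made of them.

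Isg15 and the enzymes that attach or remove it, with the ADP-ribosylating Parp genes, rose in 4 of 5 cases. Of all tested genes 24.0% rose. Isg15, a ubiquitin-like modifier, had 27.5, 10.7 and 21.6 CPM in cKO replicates 1, 2 and 3, against 0.798, 3.53 and 3.43 CPM in control replicates 1, 2 and 3 (2.93 ± 0.49; adjusted p = 0.00120, edgeR). Usp18, the protease that removes Isg15 and damps the type I receptor, had 333, 55 and 197 counts in cKO and 4, 0 and 3 counts in control (3.57 ± 0.72; adjusted p = 0.00105). Its ratio per effective size, from 585 and 7 counts, was 13.1 (exact 95% interval 6.31 to 32.7). Without control replicate 1 the fitted fold change of Usp18 was 4.24, and without control replicate 2 it was 2.95. Parp9 and Parp14, which encode ADP-ribosyltransferase family proteins, rose by 2.11 ± 0.28 and 2.10 ± 0.31 (adjusted p = 3.39e-05 and 8.83e-05), and exons of Parp9 overlap Dtx3l on the opposite strand. Trim25, a ligase for RIG-I and Isg15, had 24.2, 18.9 and 26.1 CPM in cKO and 18.5, 15.8 and 17.3 CPM in control. Its groups did not overlap, and its log2 fold change of 0.43 ± 0.18 did not pass (adjusted p = 0.0626). Without cKO replicate 2 it passed (0.56; adjusted p = 0.0102).

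The other effectors held the only fall among the members. Ifi27l2a, a small membrane protein gene, had 124, 53.1 and 93.3 CPM in cKO replicates 1, 2 and 3, against 11.3, 7.78 and 4.32 CPM in control replicates 1, 2 and 3 (3.53 ± 0.42; adjusted p = 0.000237, edgeR). Ifi27, its relative and neighbour on chromosome 12 (103434211 to 103440239, beside Ifi27l2a at 103442167 to 103443680), had 25.2, 42.8 and 32.7 CPM in cKO and 69.8, 66.4 and 54.6 CPM in control. It fell by 0.92 ± 0.19 relative to the bulk of genes (adjusted p = 0.00117) and was higher in cKO, at 2.27, as a share of library totals. Every cKO library of Ifi27 lay below every control library, with replicate 2 the closest to control. The 2 neighbours thus had opposite signs on the TMM scale and were both higher in cKO on library totals.

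Rsad2, which encodes the antiviral enzyme viperin, rose by 2.65 ± 0.27 (adjusted p = 5.08e-06, edgeR). Its neighbour Cmpk2, a mitochondrial nucleotide kinase gene, had 5.63, 3.83 and 3.99 CPM in cKO replicates 1, 2 and 3 and 4.25, 2.003 and 2.67 CPM in control replicates 1, 2 and 3. The groups of Cmpk2 overlapped (0.60 ± 0.34; adjusted p = 0.165). Rtp4 (2.56 ± 0.35), Ifi44 (1.80 ± 0.21), Bst2, the membrane tether of budding viruses (1.48 ± 0.29), and Ifi35 (1.31 ± 0.29) rose as well, with adjusted p-values of 1.21e-05 to 0.00211. Xaf1, a gene linked to cell death, had a fold change of 1.03 ± 0.45 that did not pass (adjusted p = 0.0719), and passed without cKO replicate 2 (1.20; adjusted p = 0.0468) or control replicate 3 (1.41; adjusted p = 0.0415).

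Eif2ak2, the kinase PKR that halts translation on double-stranded RNA, had 6.57, 4.52 and 6.02 CPM in cKO replicates 1, 2 and 3, against 0.665, 1.65 and 1.14 CPM in control replicates 1, 2 and 3 (2.29 ± 0.37; adjusted p = 0.000162, edgeR). Isg20, an RNA exonuclease gene, had 17.0, 46.0 and 30.5 CPM in cKO and 60.9, 44.1 and 39.4 CPM in control. Its groups overlapped, with cKO replicate 2 inside the control range. Its log2 fold change was -0.63 ± 0.33 (adjusted p = 0.157), and it passed without cKO replicate 2 (-1.002; adjusted p = 0.00200). On library totals Isg20 was higher in cKO (2.51).

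Within the cKO group, replicate 2 had the lowest level for 39 of 42 members and the highest for 2, Ifi27 and Isg20. The level in replicate 2 relative to the mean of replicates 1 and 3 had a median of 0.592 over the members and 0.989 over all tested genes. It was 0.336 for Dhx58, 0.352 for Ifit2 and 0.373 for Stat2 and Usp18 each, and 1.93 for Isg20. The same library had the highest acinar marker level of its group (104333 CPM, against 16261 and 27276 in cKO replicates 1 and 3) and the lowest macrophage marker level. Without cKO replicate 2, 39 members rose and 2 fell, Isg20 joining Ifi27. In that fit 3411 of all 13977 tested genes rose and 2829 fell.

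Markers of macrophages and fibroblasts rose with these genes. The lists of B and plasmacytoid dendritic cells and of T and NK cells had rises and no falls. The endothelial list had falls and no rises, and the duct list had both. Over all tested genes 24.0% rose and 20.7% fell. The 12 macrophage markers all rose (median 2.74), and their summed level was 1070, 545 and 886 CPM in cKO replicates 1, 2 and 3, against 178, 151 and 139 CPM in control replicates 1, 2 and 3. Among them Adgre1, a macrophage surface marker, rose by 2.98 ± 0.31 (adjusted p = 1.04e-05, edgeR). Of 7 fibroblast markers 6 rose (median 2.40), with a summed level of 3553 to 5070 CPM in cKO and 723 to 816 CPM in control. Of 6 markers of B cells and plasmacytoid dendritic cells 2 rose, Siglech and Flt3, and 0 fell (median 1.45). The list summed to 7.81 to 12.03 CPM in cKO and 0.943 to 5.58 CPM in control. T and NK cell markers were tested for 4 genes, of which 2 rose (Cd4 and Klrb1c) and 0 fell (median 2.89). The list summed to 2.90 to 5.29 CPM in cKO and 0.471 to 2.39 CPM in control. Ncr1, Gzmb and Prf1 had 0 counts in control. Their mean cKO levels of 0.310, 0.413 and 0.0222 CPM lie near or under the control limit of 0.353 to 0.399 CPM, so these counts of 0 do not show absence. Of 5 endothelial markers 2 fell and 0 rose (median -0.79), and of 4 tested duct markers 2 rose and 2 fell. Siglech, Flt3, Cd4 and Klrb1c, and Aif1 and Fcgr1 among the macrophage markers, had under 10 counts in some control library. They passed the filter only with cKO libraries, where they are high, so their calls lend no rise support. The part of these cells in the rise of the interferon-stimulated genes was not tested.

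Set against macrophage markers within each library, Ifit, Oas and Mx genes together gave 12.4, 13.3 and 12.1 counts per 100 macrophage marker counts in cKO replicates 1, 2 and 3, against 8.20, 9.20 and 8.42 in control replicates 1, 2 and 3. The cKO libraries were all above the control libraries and close to each other, replicate 2 included. For Gbp and Irg genes the ratio was 11.1, 14.0 and 13.3 in cKO and 15.5, 14.2 and 11.7 in control, and the groups overlapped. Over all 42 members it was 74.4, 90.6 and 80.7 in cKO and 154, 162 and 149 in control. Ifi27 and Isg20 hold a large part of the control counts in that sum, with 740 to 983 of 1632 to 2081 counts per library. In cKO replicates 1, 2 and 3 they hold 2506, 2945 and 3794 of 47259, 16369 and 42885 counts. With both genes taken out, the ratio was still lower in every cKO library than in every control library.

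**Figure D4:**
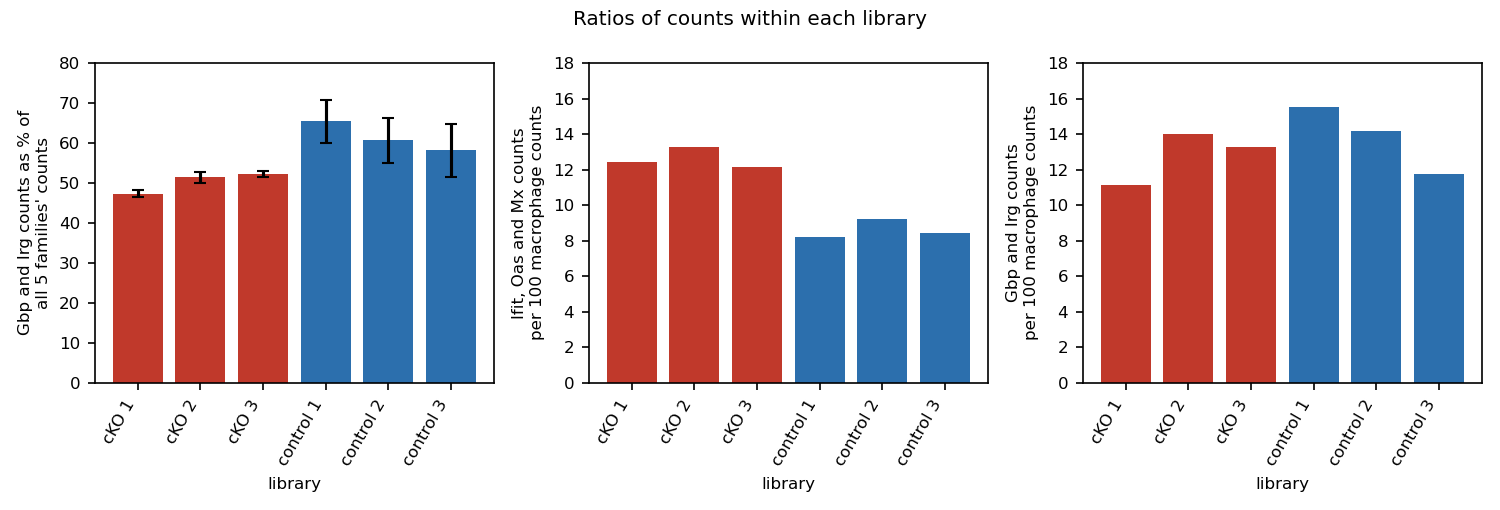
Ratios of counts within each library, cKO in red and control in blue. Left, Gbp and Irg counts as a percentage of the counts of all 5 families with exact 95% intervals for counting error, 47.3 to 52.2% in cKO and 58.2 to 65.4% in control. Middle and right, counts of Ifit, Oas and Mx genes and of Gbp and Irg genes per 100 counts of 12 macrophage markers, which lie apart for the first and overlap for the second.

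The interferon genes themselves were near or below detection. Of 21 interferon genes in the tables, 19 had 0 counts in all 6 libraries, every alpha gene and the lambda genes among them, and none had enough counts to be tested. Ifnb1, interferon beta, had 16, 5 and 8 counts in cKO replicates 1, 2 and 3 and 0 in each control library. The cKO levels of 0.270, 0.151 and 0.133 CPM each lie under the control limit of 0.353 to 0.399 CPM, so a level of this size would not be told from 0 in 1 control library. Pooled, 29 against 0 counts gave an exact 95% interval for the ratio that starts at 1.15, for counting error only. Ifng, interferon gamma, had 44, 0 and 18 counts in cKO and 2, 0 and 0 in control. Its ratio per effective size was 4.86 (exact 95% interval 1.29 to 41.0, counting error only), and the groups overlapped.

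The lists of receptors, signalling genes and inhibitors had lower medians than the members' 2.32, a difference that was not tested. Over all tested genes 24.0% rose and 20.7% fell, and counts in lists this small are descriptions only. Among 6 receptor genes 3 rose (median 0.62): Ifngr1, a chain of the gamma receptor (1.60 ± 0.21; adjusted p = 2.76e-05, edgeR), and the type I receptor chains Ifnar2 (1.44 ± 0.19) and Ifnar1 (1.06 ± 0.21). Of 8 tested JAK-STAT genes 7 rose (median 1.03), with Irf8 at 2.18 ± 0.26 and Stat3 at 0.79 ± 0.18. Of 6 feedback inhibitors 3 rose (median 1.21), namely Socs3 (1.69 ± 0.20), Ptpn6 (2.44 ± 0.35) and Socs1 (2.58 ± 0.71). Socs1, and a JAK-STAT gene among those that rose, had under 10 counts in every control library. Both passed the filter only with cKO libraries, where they are high, so their calls lend no rise support. Irf8 and Ptpn6 are also expressed in macrophages, whose markers rose in the same libraries.

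Among 13 tested genes that lead to interferon production, 7 rose and 1 fell (median 1.29). Of all tested genes 24.0% rose and 20.7% fell, which holds as background for the relatives below too. Tmem173, the DNA-sensing adaptor STING, rose by 1.98 ± 0.28 (adjusted p = 4.77e-05, edgeR) and Irf5 by 2.29 ± 0.37. Mavs, the mitochondrial adaptor of the RNA sensors Ddx58 and Ifih1, had 5.07, 4.65 and 5.49 CPM in cKO replicates 1, 2 and 3 against 14.6, 10.01 and 10.7 CPM in control replicates 1, 2 and 3. Its fold change relative to the bulk of genes was -1.21 ± 0.22 (adjusted p = 0.000483). On library totals all 48 tested pathway genes were higher in cKO, Mavs among them. Relatives of the 2 kinds of family outside the 42 members rose in 4 of 5 tested type I-leaning genes (median 2.91) and 6 of 10 tested gamma-leaning genes (median 1.57). Ifit3b rose by 3.71 ± 0.59, Oas1g by 2.91 ± 0.47 and Oas3 by 3.41 ± 0.62. Gbp10 rose by 3.51 ± 0.74 and Irgm2 by 1.36 ± 0.40, and F830016B08Rik had 52, 9 and 68 counts in cKO and 0, 1 and 0 in control. Ifit3b, Oas1g and Gbp10 share 3' words with the members Ifit3, Oas1a and Gbp6, and exons of Irgm2 overlap Igtp. Their rises may thus rest in part on the same reads. Control replicates 1, 2 and 3 had 1, 2 and 4 counts of Ifit3b, 3, 8 and 0 of Oas3 and 1 each of Gbp10. The size of these rises is uncertain. All relatives that rose passed the filter only with cKO libraries, where they are high, so their calls lend the rise no support. The same holds for the genes that lead to interferon production with under 10 counts in some control library.

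**Figure D5:**
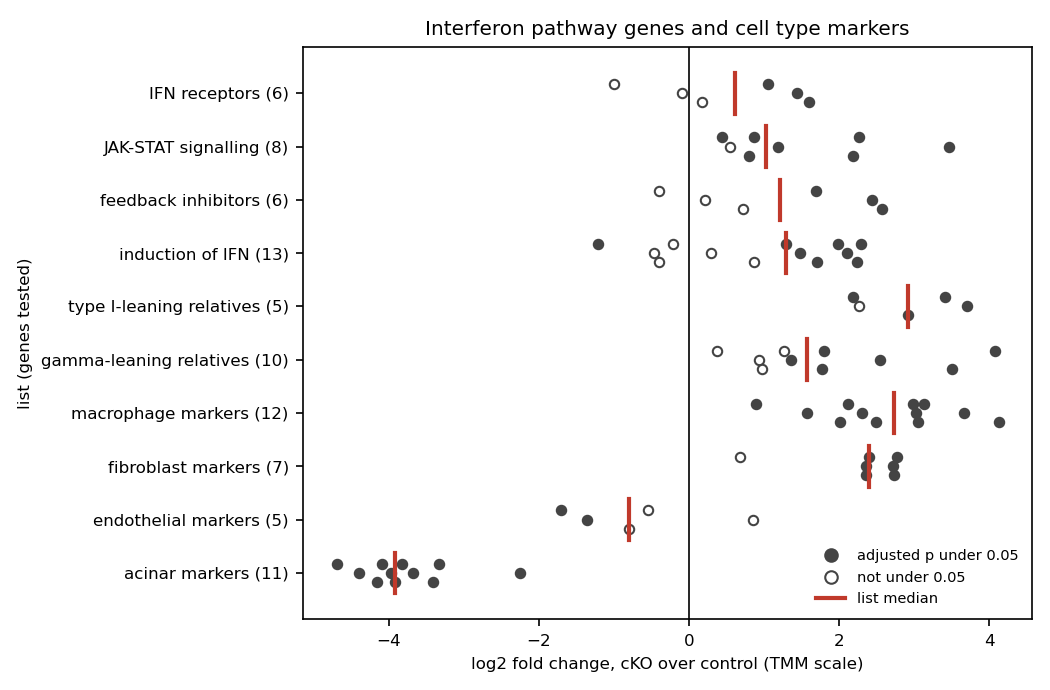
Log2 fold change, cKO over control on the TMM scale, of each tested gene in 6 lists of the interferon pathway and 4 lists of cell type markers, with the number tested beside each name. Filled points passed an adjusted p of 0.05, open points did not, and red bars are list medians, from 2.91 for type I-leaning relatives to -3.92 for acinar markers.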

How the data were processed

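Whole-number read counts, 1 table of gene symbols for each library, were deposited by the authors without normalization, from Lexogen Quant-Seq libraries of total RNA, per the labels' protocols. Per the submitters' processing notes, the tools included Bowtie2 and edgeR and the builds listed were mm10 and GRCm38, without versions or roles. The labels state no counting tool, annotation or strand setting, so overlapping genes cannot be told apart. Each table had 23282 rows. Library totals set the depth, 15.2 to 25.2 M counts, and no molecular identifiers are described, so intervals cover counting error only.

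Genes were tested with edgeR 4.0.16 (glmQLFit with robust estimation, glmQLFTest) in R 4.3.3, with filterByExpr defaults (minimum count 10, minimum total 15), TMM factors and Benjamini-Hochberg adjustment over 13132 genes. All 42 members passed the filter, those with under 10 counts in some control library and Oasl2 only with cKO libraries. The filter scales its minimum count to library size, so the 12 counts of Oasl2 in control replicate 1 fell short. SE is the log2 fold change divided by the square root of F. DESeq2 1.42.0 was an alternative. Members, lists and tests were chosen with earlier results of these data known. Values per library are printed for all genes of the Ifit, Oas, Mx, Gbp and Irg families, for the 5 highest and 5 lowest fold changes and for the 2 most abundant genes of each other role. From each pathway list up to 3 genes with the smallest p are named, except 1 gene that is not reported here. The remaining members are given as fold changes. Positions and 3' sequences came from GENCODE M21 (GRCm38). In the promoter table, 31 of 35 windows of members had bases that open an annotated transcript on the same strand. No pair of replicates was alike within sampling noise (chi-square divided by its degrees of freedom, 14.6 to 370).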

Additional observations from a re-analysis of the deposited data

How the results depend on the processing

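All 42 members had the same direction and the same side of the threshold with RLE factors, DESeq2 and the fit blocked on replicate. Without any filter 41 did, and Trim25 passed (adjusted p = 0.0482). Leaving out 1 library gave 36 to 39 members higher and 1 to 2 lower, with a median of 2.22 to 2.49, 2.88 to 3.32 for type I-leaning and 2.07 to 2.75 for gamma-leaning genes. Over all tested genes these fits gave 2388 to 3411 higher and 2076 to 2829 lower. Called values that moved by over 1.5 times were those of genes with few control counts, as given with each, besides Mx1, which was tested against counts of 0. On library totals the median of all genes was 3.37 in place of 0.10. There 12654 genes were higher and 53 lower, 42 members were higher and 0 lower (0 at an unadjusted p of 0.05, edgeR), and 48 pathway genes were higher and 0 lower. The medians were 5.64 for members, 6.38 for type I-leaning and 5.56 for gamma-leaning genes. Ifi27 (2.27) and Isg20 (2.51) changed sign, and relative to the median of all genes they stayed lower, at -1.09 and -0.85, while members stood at 2.27. With at least 10 counts per 1e6 of the library total in 3 libraries, a scale other than the CPM of the report, 26 members were tested, 23 rose and 1 fell. All but Ifi27 and Isg20 passed that filter through cKO libraries alone, where they are high, so these counts lend the rise no support. There 1846 genes were higher and 1767 lower and 14 pathway genes were higher and 0 lower (0 at an unadjusted p of 0.05, edgeR; DESeq2 on the usual filter gave 1), where fewer genes were tested. An ISRE with 1 mismatch allowed was found for 27 of 29 members and 38.9% of all genes, and a GAS with 4 bases between TTC and GAA in place of 3 for 6 and 8.01%. In the replicate block fit 36 members rose and 1 fell, as without it. Same-numbered libraries did not deviate together (correlations of 0.0142, -0.0295 and -0.00774), so no pairing was seen. With 3 libraries per group this check cannot show that they share nothing beyond the number. Control counts under 10 in 18 members limit the size of their rises.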
